A study of Homo sapiens with 14 samples.

Results

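DDX and DHX genes encode the DEAD-box and DEAH-box RNA helicases, and the splicing of their own transcripts was examined in HEK293T cells with and without a mutation of SF3B1. Events were taken from the deposited table of splice events when the gene symbol began with DDX or DHX followed by a digit, DDX5, DDX39A, DDX39B, DHX9 and DHX15 were left out, and the average of the WT and MT mean junction reads had to reach 10. Of 661 table entries of the family, 60 belonged to the 5 genes left out and 38 of the rest fell under the read minimum, which left 563 events in 43 genes of the 114349 events in the whole table. The genes were 40 protein-coding genes, the pseudogenes DDX12P and DHX40P1 and the antisense RNA DDX11-AS1. DDX60 had no event over the minimum. The 563 events were 348 skipped exons, 101 pairs of mutually exclusive exons, 48 alternative 3′ splice sites, 44 retained introns and 22 alternative 5′ splice sites.

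HEK293T is a transformed human line from embryonic kidney. RNA-Seq was performed on 3 WT samples, labelled SF3B1 K700K, and on 3 MT samples, labelled SF3B1 K700E and carrying the mutation at the endogenous locus. The labels name no treatment for either group. The sources used here do not say whether each line is 1 clone or whether samples of a group came from separate cultures, so p-values measure the spread between these samples, which may be technical. The table gives splice levels and not expression, so neither kidney markers nor the mutated base of SF3B1 could be checked in it. Its lists hold 6 MT values for an event, and separate columns exist for 3 of these. The separate columns are called MT 1, MT 2 and MT 3 in column order and were used, but nothing in the table ties them to the study's 3 labelled MT samples.

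RNA helicases use ATP to unwind RNA or to strip proteins from it, and the family accompanies an RNA from transcription through splicing, export, translation and decay. Several members drive steps of the spliceosome itself, and many others assemble ribosomes in the nucleolus. SF3B1 is the subunit of the U2 small nuclear ribonucleoprotein that holds the branch point of the intron, and its K700E form is known for the use of cryptic 3′ splice sites a short way upstream of the usual site. The question put to these events was whether helicase transcripts were spliced differently in MT and WT cells. Inclusion level here is the fraction of junction reads, corrected for length, that support the longer form of an event, or 1 of the paired exons where exons are mutually exclusive. For a retained intron the longer form is the unspliced one.

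No helicase event passed the test. All 563 events had a level in each of the 6 samples, 70 had an identical level in all of them, and 493 events in 42 genes were tested by limma after an arcsine square-root transformation. With a Benjamini-Hochberg adjusted p under 0.05 over all 83581 events tested and a difference above 0.1, 0 of the 493 were called, against 0.0311% of all events (26 events, 0.0132% higher and 0.0179% lower in MT). The lowest adjusted p of a helicase event was 0.782 by the same limma fit. At an unadjusted limma p under 0.05 there were 19 helicase events, or 3.85%, against 4.47% of all events. Each of 8 other settings of the fit called 0 helicase events, as did every fit with 1 sample left out. Calls were rare in all of these fits, from 0 to 63 of all events, so they say little about helicase events in particular. The median difference of MT minus WT was −0.00167 for helicase events and −0.002 for all events. In absolute size the median difference was 0.00767 against 0.0137 for all events, at a median depth of 153 against 82.4 mean reads per event.

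Most skipped-exon events of helicase genes were nearly constitutive in these cells, with the exon almost always included. The average level of an event was 0.95 or higher in 287 of the 493 events (58.2%, against 53.0% of all events) and 0.05 or lower in 57 (11.6%, against 10.6%). Among skipped exons, 86.3% of 284 were at 0.95 or higher, against 69.6% of all skipped exons tested. Their median depth was 159 mean reads, against 80.8 for all skipped exons, and the part of depth in this was not tested. Differences narrowed with depth. In all, 56 of 493 events, or 11.4%, lay outside the range from the 5th to the 95th percentile of all events of their read class, which leaves out 10% of all events by construction. The classes were uneven, with 0 of 17 outside at 10 to 20 reads, 11 of 50 at 20 to 50 and 5 of 28 above 1000. The plot of differences by depth shows the few events that lay far from 0.

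**Figure D1:**
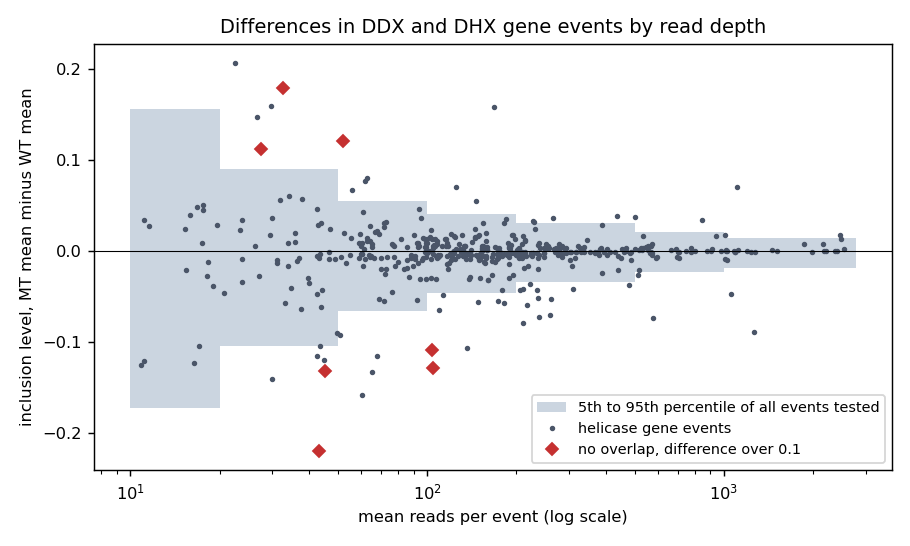
Each point is 1 of the 493 helicase gene events tested, by its mean reads (log scale) and its MT mean minus WT mean inclusion level, and the grey band spans the 5th to 95th percentile of all events in 7 read classes. Most points lie within the band, and the 7 red diamonds are the events whose 3 WT and 3 MT levels did not overlap and differed by over 0.1.

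The samples themselves were not separated by genotype. Averaged over helicase events, the absolute difference between a pair of samples was 0.0277 to 0.0321 within WT, 0.025 to 0.0386 within MT and 0.0244 to 0.0353 between a WT and an MT sample. The closest pair of all was WT 2 and MT 2, and samples drew together across genotype. WT 2, MT 2 and MT 3 were 0.0244 to 0.0277 apart. WT 1 was nearest to MT 1 (0.0275) and WT 3 (0.0277), though WT 3 and MT 1 were 0.0343 apart. A split of WT 1, WT 3 and MT 1 from the rest is uneven between the genotypes, so the 2 cannot be fully told apart. A fit with a term for this split, named for depth at the end, called 0 helicase events. Levels of exactly 0 or 1 made up 44.6% to 50.7% of helicase levels in the WT samples and 39.1% to 43.6% in the MT samples. Over all events tested they made up 40.5% to 44.5% in WT and 34.4% to 43.8% in MT, where MT 1 lay within the WT range. The part of these shares in the results for nearly constitutive exons below was not tested.

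In 7 helicase events every MT level lay beyond every WT level with means more than 0.1 apart, 3 with higher and 4 with lower levels in MT. This was 1.42% of the events tested, against 1.73% of all events, or 0.748% higher and 0.977% lower. Of any size, 21 events (4.26%) did not overlap, against 5.46% of all. The 7 events lay in 4 genes, DHX35, DDX31, DDX11 and DHX32, and the plot of their levels gives each sample. Without DDX11, 4 of 443 events remained, or 0.903%.

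**Figure D2:**
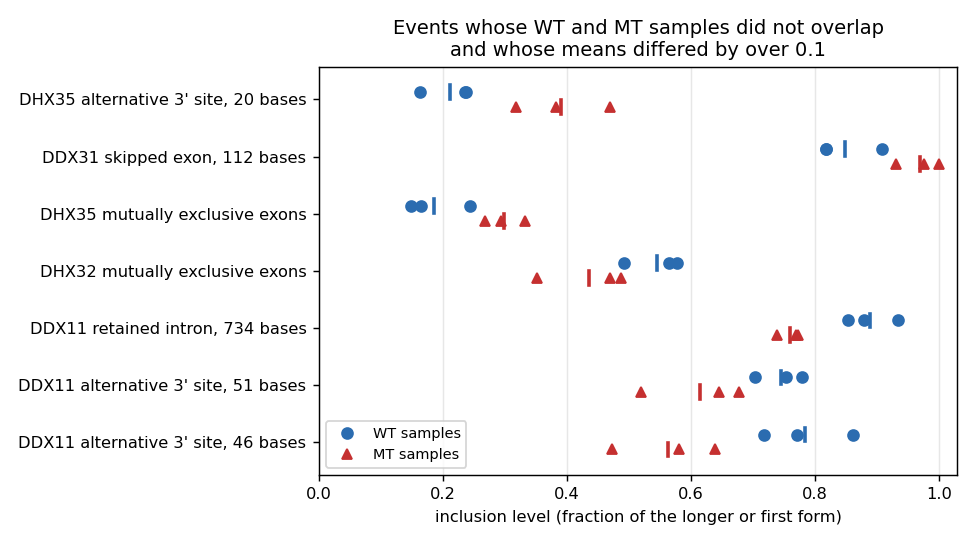
Inclusion level (fraction, x axis) of the 7 helicase events without overlap between groups and with means over 0.1 apart, with WT samples as blue circles, MT samples as red triangles and group means (n = 3) as vertical bars. The DHX35 3′ site event rises from a mean of 0.211 to 0.390, while the 3 DDX11 events are lower in MT.

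Among the helicases of the spliceosome and small nuclear ribonucleoproteins, 84 events in 8 genes were tested, and 0 were called. By mean, 36 were higher and 48 lower in MT. An unadjusted limma p under 0.05 was found for 4 (4.76%, against 4.47% of all events). Among the 7 events above were 2 (2.38%, against 1.73% of all), both in DHX35. DHX35 encodes a DEAH-box protein found in catalytically active spliceosomes. Its event at chr20:38988793-38988812 (GRCh38, plus strand) adds 20 bases to the 5′ end of an exon by use of an upstream 3′ splice site. In the GENCODE v44 annotation, 2 of the 5 transcripts across this place use the upstream and 3 the downstream site, and 20 is not a multiple of 3. Inclusion of the longer form came to 0.235, 0.237 and 0.162 in WT and 0.318, 0.383 and 0.470 in MT samples. All 3 MT levels were above all 3 WT levels. The means were 0.211 ± 0.0427 (SD, n = 3) and 0.390 ± 0.0763 (SD, n = 3), a difference of 0.179 with a standard error of 0.0505, and the adjusted p by limma was 0.856. Depth was low, with mean counts of 9.67 reads for the longer and 29.7 for the shorter form in WT, and 10 and 16.0 in MT, where the means cover all 6 listed values. Listed values outside the columns used here enter those MT means, so they do not show which form changed in the 3 MT samples compared. The region is printed here from GRCh38, chr20:38988753-38988822, because it holds both competing sites, and the capitals mark the AG before each.
DHX35: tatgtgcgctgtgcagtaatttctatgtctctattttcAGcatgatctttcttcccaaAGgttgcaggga

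The same longer exon entered another DHX35 event, in which it was paired with the next exon as mutually exclusive. Its levels came to 0.149, 0.244 and 0.165 in WT and 0.267, 0.333 and 0.294 in MT samples, again without overlap, with a difference of 0.112 (standard error 0.0351, limma adjusted p = 0.856). As a cassette, the 125-base exon had levels of 0.917 to 1 in WT and 0.931 to 1 in MT, so the exon as such was nearly always present in both groups. Both results read the same 3′ splice site and do not count as separate observations.

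DHX8, the helicase that releases spliced mRNA from the spliceosome, had the lowest unadjusted p of this group together with DDX42 and DDX46. Its 86-base exon at chr17:43489449-43489534 (plus strand) was included at 0.99, 0.979 and 0.985 in WT and 0.940, 0.918 and 0.967 in MT samples. The groups did not overlap, but the difference was only −0.043 (standard error 0.0145, limma adjusted p = 0.856). Skipping reads were few, with a mean of 1.33 in WT and 5.5 over the 6 listed MT values. DDX42, a helicase that associates with the SF3B complex, was included at 0.977, 0.966 and 0.971 in WT and 0.975, 0.902 and 0.879 in MT for a 37-base exon, and MT 1 fell within the range of WT. In DDX46, which acts with the U2 particle when the branch point is first engaged, a 144-base exon was at 1 in every WT sample and at 0.989, 1 and 0.981 in MT. These exons were close to fully included in both genotypes.

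Alternative sites of DDX46 and DDX42 with intermediate levels, picked out after their values had been seen, lay near each other in the 2 groups. A 3-base choice of 5′ splice sites in DDX46 stood at 0.735, 0.695 and 0.787 in WT and 0.720, 0.719 and 0.749 in MT. A 71-base exon of DDX42 stood at 0.141, 0.186 and 0.186 in WT and 0.151, 0.121 and 0.224 in MT. In both events the groups overlapped and the standard errors of the differences, 0.0284 and 0.0341, were larger than the differences of −0.00967 and −0.00567.

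The helicases of ribosome biogenesis were the largest group, with 183 events tested in 16 genes and 0 called. By mean, 78 were higher and 105 lower in MT, and 4 (2.19%, against 4.47% of all events) had an unadjusted limma p under 0.05. In 9 events (4.92%, against 5.46% of all events) the groups did not overlap, 7 with higher and 2 with lower levels, where all events had 1935 higher and 2629 lower. Only 1 of these, in DDX31, differed by over 0.1 (0.546% of the group, against 1.73% of all events). DDX31 is a nucleolar helicase of ribosome assembly. Its 112-base exon at chr9:132618330-132618441 (minus strand) was included at 0.909, 0.818 and 0.818 in WT and 1, 0.931 and 0.976 in MT samples. The MT samples were all above the WT samples, by a mean of 0.121 (standard error 0.0365, limma adjusted p = 0.782). The adjoining 82-base exon, named after its values had been seen, showed 0.882, 0.680 and 0.782 in WT and 1, 0.878 and 0.943 in MT, where MT 2 did not exceed WT 1. Both levels share their skipping reads, with a mean of 4.0 in WT and 1.5 over the 6 listed MT values. Against another skipping junction, the 112-base exon stood at 0.976, 0.978 and 1 in WT and 0.965, 1 and 1 in MT. No level for the exon as a whole was computed, so these values do not show whether its inclusion differed.

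DDX21, a nucleolar helicase that also unwinds RNA-DNA hybrids, had a 135-base exon at 1 in all WT samples and at 0.99, 0.985 and 0.994 in MT. This difference was −0.0103 (standard error 0.0026, limma adjusted p = 0.856). Mean counts were 0 skipping reads in WT and 0.667 over the 6 listed MT values, beside 349 and 259 inclusion reads. In DDX54 a 219-base exon stood at 1, 0.986 and 1 in WT and 0.987, 0.983 and 0.955 in MT, and the groups overlapped. The DDX21 exon pair with the most reads had levels of 0.514 ± 0.0728 in WT and 0.583 ± 0.12 in MT (SD, n = 3), a difference of 0.0697 that was smaller than its standard error of 0.0809 and ranged from 0.0288 without MT 2 to 0.138 without MT 1.

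Closely spaced 3′ splice sites in this group and in DDX3X are printed because each places competing AGs within a few bases, and the pairs in DDX54 and DDX3X add or drop 3 bases. Names and values of these events were chosen after the levels had been seen. The windows are, in GRCh38, chr12:113159100-113159152 on the minus strand for DDX54, chrX:41347272-41347324 on the plus strand for DDX3X, chr12:123607560-123607613 on the plus strand for DDX55 and chr7:44568983-44569045 on the minus strand for DDX56. Capitals mark only the AG of each competing site, and other AGs are in lower case.
DDX54: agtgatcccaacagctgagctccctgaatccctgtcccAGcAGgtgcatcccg
DDX3X: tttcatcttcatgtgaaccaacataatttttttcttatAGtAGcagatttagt
DDX55: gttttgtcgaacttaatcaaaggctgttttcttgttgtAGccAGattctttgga
DDX56: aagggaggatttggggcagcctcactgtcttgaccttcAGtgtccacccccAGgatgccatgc

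In DDX54, the longer form made up 0.571, 0.576 and 0.641 in WT and 0.603, 0.518 and 0.539 in MT samples. DDX3X stood at 0.691, 0.667 and 0.664 in WT and 0.728, 0.635 and 0.693 in MT, at a mean of 345 reads. Both genes used the 2 sites side by side in either genotype. The groups overlapped, with differences of −0.0427 (standard error 0.0341) and 0.0113 (standard error 0.0284). In DDX55, with sites 4 bases apart, the upstream site had 0.946, 0.921 and 0.963 in WT and 1, 0.973 and 0.983 in MT, a difference of 0.042 without overlap (standard error 0.0145, limma adjusted p = 0.856). DDX56 has sites 13 bases apart, and its upstream site was rare, with 0.004, 0.008 and 0.028 in WT and 0.006, 0.038 and 0.049 in MT. The MT mean was higher by 0.0177 with a standard error of 0.0149, and the groups overlapped.

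Over all alternative 3′ splice sites of the family, 46 events in 21 genes were tested, 0 were called, against 12 of all 5351 such events, and 3 (6.52%, against 3.49% of all) had no overlap with a difference above 0.1. Of these 3, 2 are overlapping events of DDX11. Site pairs 10 to 30 bases apart made up 7 of the 46 (15.2%, against 18.6% of all alternative 3′ site events) and lay in DDX56, DDX11 (2 events), DHX35, DHX57, DDX42 and DDX49. Only the DHX35 pair was without overlap and over 0.1 higher in MT, 1 of 7, where 4.81% of all 997 such pairs met these conditions. The other 6 pairs differed by less than 0.02, and in 5 of the 7 the average level of the longer form was 0.05 or lower. The plot of 3′ site pairs by distance shows the DHX35 pair apart from them.

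**Figure D3:**
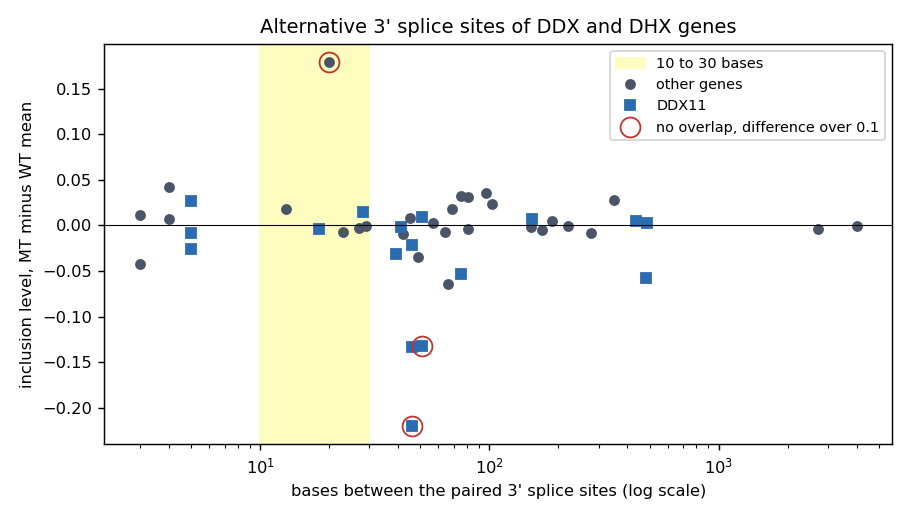
Each point is 1 of 46 alternative 3′ splice site events, by the bases between its sites (log scale, x axis) and the MT mean minus WT mean inclusion level (y axis), with DDX11 as blue squares and other genes as grey circles. Red rings mark the 3 events without overlap and over 0.1 apart, 1 in DHX35 at 20 bases and 2 in DDX11 at 46 and 51 bases.

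DDX11 is a DNA helicase needed for sister chromatid cohesion, and it carried more events than any other gene of the family, 50. DDX12P is a near-identical pseudogene copy, so reads of the pair may have been assigned to either, and these levels are uncertain. The list of both had 51 events tested and 0 called. An unadjusted limma p under 0.05 was reached by 3 (5.88%, against 4.47% of all events). The list held 3 of the 7 events above (5.88%, against 1.73% of all), all 3 lower in MT. They lie in 1 stretch of the gene, on the plus strand of chromosome 12. In that stretch 18 overlapping events were tested, with 10 lower and 8 higher in MT by mean, and 5 without overlap, each of which was lower. These 5 were the only events of the list without overlap, 9.8% of it against 5.46% of all events. The map of these 5 events shows their shared exons.

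**Figure D4:**
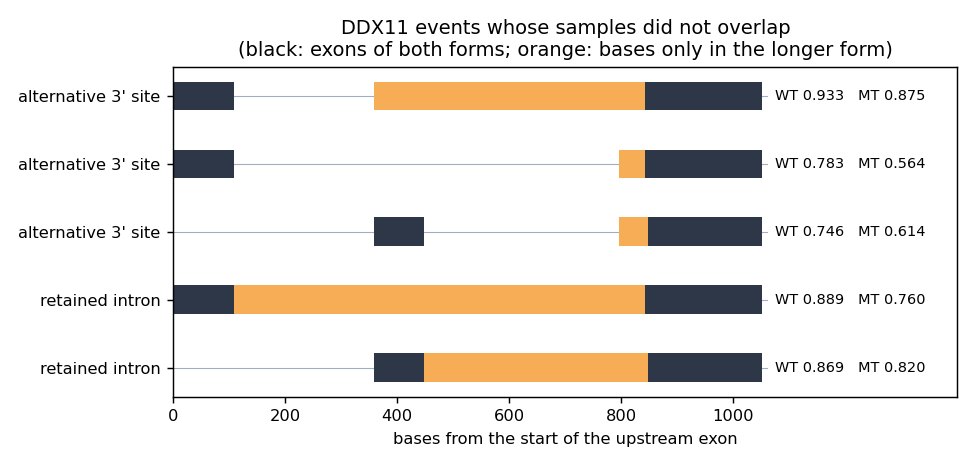
The 5 DDX11 events without overlap between groups, drawn to scale in bases from the start of the upstream exon, with exon bases of both forms in black, bases only in the longer form in orange and the mean inclusion level of each group (n = 3) at the right. All 5 share the downstream exon and have a lower mean in MT.

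In the retained-intron event that spans the whole stretch of 734 bases, the level of the longer form stood at 0.880, 0.854 and 0.934 in WT and 0.739, 0.769 and 0.773 in MT samples. Every MT level was below every WT level, with means of 0.889 ± 0.0408 and 0.760 ± 0.0186 (SD, n = 3), a difference of −0.129 (standard error 0.0259, limma adjusted p = 0.782). This level is not the share of transcripts that keep all 734 bases, since the 251-base intron within them had unspliced levels of only 0.231, 0.215 and 0.341 in WT against 0.182, 0.172 and 0.266 in MT. For 3′ splice sites 46 bases apart, spliced from the same upstream exon, the longer form had 0.718, 0.771 and 0.861 in WT and 0.472, 0.581 and 0.638 in MT. This was the largest difference among the 7 events, −0.220 (standard error 0.0641, limma adjusted p = 0.856). Sites 51 bases apart, spliced from an internal exon, gave 0.704, 0.754 and 0.779 in WT and 0.519, 0.646 and 0.677 in MT, a difference of −0.132 (standard error 0.0531, limma adjusted p = 0.856) that fell to −0.0842 without MT 1. For the 46-base pair, 1 annotated transcript uses the upstream and 7 the downstream site, of 13 transcripts across it.

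The DDX11 events were not independent of each other. The 734-base event, the 46-base pair, a 483-base alternative 3′ site and the skipping of an 88-base exon all had the same shorter form. This form had a mean of 6.33 reads in WT and 12.5 over the 6 listed MT values. The 88-base exon, chosen after its values had been seen, stood at 0.924, 0.893 and 0.934 in WT and 0.918, 0.864 and 0.801 in MT, and its groups overlapped. Spliced from the internal exon instead, the same 46-base pair had 0.357, 0.469 and 0.512 in WT and 0.148, 0.290 and 0.5 in MT, also with overlap. A DDX11 pair of mutually exclusive exons with more reads had means of 0.491 ± 0.0596 in WT and 0.449 ± 0.0192 in MT (SD, n = 3). In DDX12P, a 73-base exon was at 1 in all samples but MT 2, at 0.970.

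Helicases of mRNA export, translation and decay had 82 events tested in 8 genes, 0 called and 0 of the 7 events above. By mean, 30 were higher and 49 lower in MT, and 7 had an unadjusted limma p under 0.05, 8.54% against the 4.47% of all events. Of those 7, 6 were skipped exons of DDX3X, DDX19A and DHX34 with differences from −0.0313 to −0.00767, and the other was an exon pair of DHX36 with a difference of 0.158. DDX3X, which helps to start translation, had a 48-base exon at 1 in every WT sample and at 0.99, 0.988 and 0.979 in MT. The difference was −0.0143 (standard error 0.00338, limma adjusted p = 0.856). Skipping reads had a mean of 0 in WT and 1.67 over the 6 listed MT values. DDX19A, a helicase of mRNA export, had a 136-base exon at 1, 0.978 and 1 in WT and 0.965, 0.983 and 0.981 in MT, so the groups overlapped. A 119-base form of this exon, also among those 7, had the same mean skipping counts, 1.33 in WT and 2.17 over the 6 listed MT values. These forms do not count as separate observations. DHX36, which unwinds G-quadruplexes, had a pair of mutually exclusive exons at 0.544, 0.682 and 0.544 in WT and 0.569, 0.898 and 0.777 in MT. Its difference of 0.158 had a standard error of 0.107, and MT 1 lay within the WT range. The difference was 0.083 without MT 2 and 0.247 without MT 1. The corresponding DDX3X pair, with the most reads of this group, had means of 0.549 ± 0.0211 and 0.538 ± 0.0208 (SD, n = 3).

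DHX30, which serves the mitochondrial ribosome, was the only member of its list with events, 24 tested and 0 called. Its mutually exclusive pair with the most reads stood at 0.463, 0.436 and 0.439 in WT and 0.404, 0.388 and 0.433 in MT. The groups did not overlap, but the difference was −0.0377 (standard error 0.0157, limma adjusted p = 0.856). A 96-base DHX30 exon was at 1, 0.983 and 0.978 in WT and at 1 in all MT samples. Among the sensors of viral RNA only DDX58, which encodes RIG-I, had events tested, 4 in number with a median depth of 16.7 reads. They were too shallow to be named by the rule, and 0 were called.

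The remaining protein-coding genes gave 64 events in 5 genes, with 0 called. An unadjusted limma p under 0.05 was reached by 1 (1.56%, against 4.47% of all events). This group held 1 of the 7 events above (1.56%, against 1.73% of all). That event was a pair of mutually exclusive exons in DHX32, with 0.565, 0.492 and 0.578 in WT and 0.351, 0.469 and 0.487 in MT samples. The highest MT level was just under the lowest WT level, and the difference of −0.109 had a standard error of 0.0504 (limma adjusted p = 0.856) and was −0.067 without MT 1. In DDX59, a 252-base exon at chr1:200650425-200650676 (minus strand) had 0.875, 0.939 and 1 in WT and 0.921, 0.714 and 0.703 in MT. MT 2 and MT 3 were below all WT samples and MT 1 was not, so the difference of −0.159 (standard error 0.0796, limma adjusted p = 0.834) came with overlapping groups. DDX17, a paralog of DDX5 that acts in transcription and splicing, had a deep pair of mutually exclusive exons with 0.405 ± 0.016 in WT and 0.407 ± 0.00529 in MT (SD, n = 3). A 228-base exon of DHX40 stood at 1, 0.978 and 0.983 in WT and at 1 in all MT samples. An 88-base exon of DHX57 was at 1 in WT and at 1, 0.959 and 0.897 in MT, and a 183-base exon of the pseudogene DHX40P1 was at 1, 0.941 and 1 in WT and 1, 1 and 0.918 in MT. In these 3 exons the groups shared levels of 1 and were fully or nearly fully included in most samples.

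Mutually exclusive exon events of this family need a limit of their own. Of the 100 tested, 88 had both exons listed as cassettes too, and in 85 of these both exons were at an average of 0.95 or higher as cassettes. Their levels near the middle of the scale, as in DDX17, DDX3X, DDX46, DHX32 and DHX36, thus came from exons that were each nearly always included. In DDX46, the level of such a pair was 0.488 ± 0.104 in WT and 0.414 ± 0.0476 in MT (SD, n = 3), while its 144-base exon alone was close to 1 in both groups.

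Leaving those pairs out, 45 events in 21 genes had an average level between 0.1 and 0.9 and a mean of at least 20 reads, where both forms were present in quantity. They comprised 19 retained introns, 11 alternative 3′ sites, 11 skipped exons and 4 alternative 5′ sites, and 13 of the 45 were in DDX11. The MT mean was lower in 33 of them (73.3%, against 54.8% of all events chosen in this manner), and without DDX11 in 22 of 32 (68.8%). Means differed by over 0.1 in 16 (35.6%, against 19.6% of all), of which 11 were in DDX11 and DDX51. Groups were without overlap in 6 of the 45 (13.3%, against 11%), 4 of them in DDX11, 1 in DHX35 and 1 in DDX55. Events of a gene share junctions and are not independent, so these shares are a description.

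**Figure D5:**
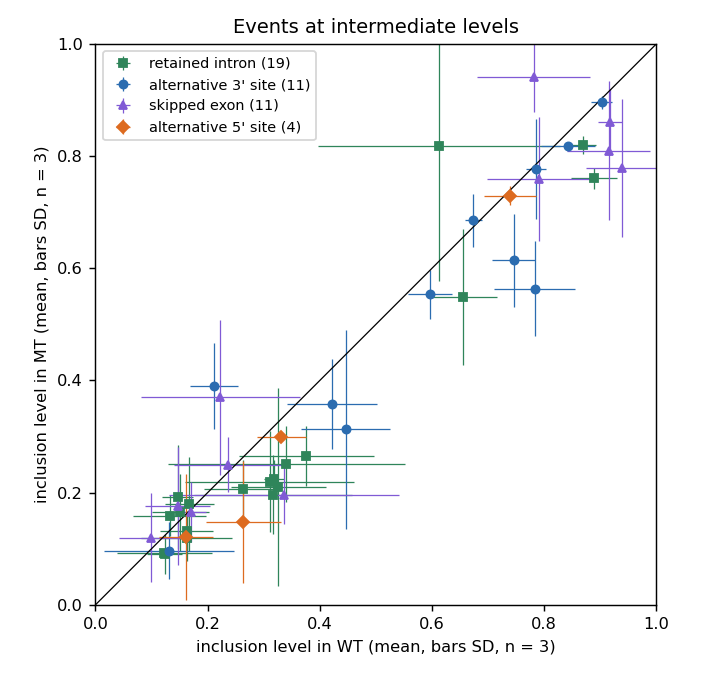
Mean inclusion level in WT (x axis) and MT (y axis) of the 45 helicase events between 0.1 and 0.9 with at least 20 reads, by event type, with bars for the SD (n = 3, cut off at 0 and 1) and a line of equal levels. Points lie along the line, 33 below it and 12 above, with bars that often cross it.

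Retained introns were the most frequent kind among them, with several in DDX11, DDX51 and DDX55. The MT mean was lower in 14 of these 19 introns (73.7%, against 55.8% of all introns chosen in this manner). In DDX55, a nucleolar helicase, a 91-base intron at chr12:123605982-123606072 (plus strand) had as unspliced fractions 0.3, 0.317 and 0.336 in WT and 0.202, 0.210 and 0.263 in MT. The groups did not overlap, with a difference of −0.0927 (standard error 0.0218, limma adjusted p = 0.856), and this intron was chosen after its values had been seen. Another DDX55 intron of 1017 bases, chosen likewise, had 0.162, 0.126 and 0.214 in WT and 0.271, 0.163 and 0.106 in MT. A DDX55 intron of 76 bases, also chosen likewise, had 0.348, 0.272 and 0.508 in WT and 0.252, 0.325 and 0.221 in MT. Its groups overlapped, with a difference of −0.11 (standard error 0.0761, limma adjusted p = 0.856). Of the 6 DDX55 events at intermediate levels, 5 had a lower mean in MT. DDX51, which also serves ribosome assembly, had 4 introns at intermediate levels, and in each of them the groups overlapped. The intron of 243 bases ranged from 0.228 to 0.377 in WT and from 0.071 to 0.409 in MT. Over all 43 retained introns tested, 22 were lower and 21 higher in MT by mean, against 54.5% lower of all introns tested, and 0 were called.

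Beyond the genes kept here, 22 other genes of RNA helicases gave 276 events tested. They include DDX5, DHX9 and DHX15, which belong to the family but were left out, and members of other helicase families. Of these 0 were called, 10 (3.62%) had an unadjusted limma p under 0.05, and 1 (0.362%) was without overlap and over 0.1 apart.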

How the data were processed

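RNA-Seq libraries were made by the authors with a stranded kit, and their processing notes name STAR, StringTie and BWA without versions. Methods name the rMATS model for splicing, and coordinates are on GRCh38. The authors deposited inclusion levels as fractions for each event and sample, with mean junction read counts per group. The MT read means cover 6 listed values, of which the 3 MT columns hold the first, the second and the sixth. The 6 columns that list values per sample were not used, nor were the deposited p-values, adjusted p-values, level differences and labels of the authors' own comparison. DRIP-seq peak lists of the series were not used here.

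Sources of the levels are junction reads, so the precision of a level is set by the reads of its event, which are given. Levels were compared by limma 3.58.1 (R 4.3.3), with a variance trend on the log2 of mean reads, in all events with 10 reads or more, a level in all 6 samples and levels not all equal. The standard error of a difference is that of the group means. The procedure was run on simulated levels with changes placed only in events of lower level. That run does not show whether changes in nearly constitutive exons would be called. Events named were those without overlap and over 0.1 apart with at least 20 reads in each group, and, in each list of genes by function, the 3 genes with the lowest p at that depth and the event between 0.1 and 0.9 with the most reads. This gave 27 events in 19 genes. Every other event given with its levels was chosen after seeing values, whether or not this is said beside it. The members and gene lists were chosen with earlier results of these data known. Exons were matched to GENCODE v44, which holds 98.6% of 3580 exon ends of these events, and all 48 alternative 3′ pairs had AG at both sites. Alternatives were a logit transform, other read minimums, variance settings, sample weights, events with equal levels kept, a term for depth and each sample left out. The sequence at 1 pair of 3′ splice sites is not reported here.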

Additional observations from a re-analysis of the deposited data

How the results depend on the processing

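No paired analysis was possible because the MT columns carry no replicate number of the labels. The count of helicase events called was 0 under every alternative run, and the lowest adjusted p by limma was 0.0636, reached when events with equal levels were kept. Over all events, the 26 called became 0 with a logit transform, 0 without a variance trend, 63 with robust variance and 51 with a term for depth (WT 1, WT 3 and MT 1 against the rest), which was chosen after seeing the data. With 1 sample left out at a time, from 3 to 13 of all events were called. Helicase events without overlap and over 0.1 apart were counted on the levels themselves, which the settings of the fit do not change. With all samples only the read minimum could alter the count, and it was 7 at a minimum of 20 and with none. With 1 sample left out there were 9 to 15 such helicase events. Those of all events then numbered 2467 to 3600, where fewer samples leave fewer levels to overlap. Directions of the named events turned in 6 cases, all with differences near 0. The exon pair of DDX3X, which ranged from −0.0222 to 0.000833 with 1 sample left out, turned at 0.000833 without WT 1. The exon pair of DDX17 ranged from −0.0065 to 0.0095 and turned at −0.0065 without WT 3 and −0.000333 without MT 2. The exon of DHX40P1 ranged from −0.0273 to 0.0197 and turned at 0.00217 without WT 1 or WT 3 and at 0.0197 without MT 3. For the separated events, the difference with 1 sample left out ranged from 0.139 to 0.215 for the DHX35 site pair, from 0.105 to 0.151 for DDX31, from −0.136 to −0.067 for DHX32, from 0.0935 to 0.141 for the exon pair of DHX35, and in DDX11 from −0.257 to −0.174 for the 46-base pair, from −0.163 to −0.0842 for the 51-base pair and from −0.147 to −0.107 for the 734-base event. Those of DHX32, the DHX35 exon pair and the 51-base pair fell under 0.1 in size when some samples were left out. Of the other exon pairs, DHX36 ranged from 0.083 to 0.247, DDX21 from 0.0288 to 0.138, DDX46 from −0.11 to −0.0143 (without WT 1) and DDX11 from −0.0692 to −0.0102 (without WT 1). Otherwise the cause was not tested. Depth limits these results where the shorter form had only a few reads, as in DDX31 and DDX11.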
